A study of Rattus norvegicus with 4 samples.

Results

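Of 32 rat genes listed for nucleotide, serine and one-carbon synthesis, 20 had a probe on the arrays that carried a RefSeq accession of the gene, with 28 probes between them. The other 12, Cad, Ctps1, Ppat, Gart, Pfas, Adsl, Adss2, Impdh1, Tk1, Shmt1, Mthfd1l and Mthfd2, had no probe named this way and were not analysed here. Total RNA was from PC12, a rat cell line of pheochromocytoma origin, that is, of a tumour of the adrenal medulla. The line is known for having no working MAX, the partner that MYC proteins need in order to bind DNA. Cells were nucleofected either with an empty plasmid or with one encoding MAX, and both were kept under selection with E418, as the labels spell it. A single transfected line stood for each group and was taken at passages 8 and 13, and whether a line is 1 clone is not given in the sources used here. Each of the 4 RNA samples was hybridised to a Cy3 array, which gave 2 arrays per group. The labels do not say which replicate number belongs to which passage. The p-values therefore rest on spread between the 2 arrays of each line, which were of different passages, and not on spread between transfections. Empty vector replicates 1 and 2 and MAX vector replicate 2 shared slide 1, while MAX vector replicate 1 was alone on slide 2. Spread within the MAX vector group thus also holds any difference between slides.

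Purine and pyrimidine nucleotides are the building blocks of RNA and DNA and the carriers of cellular energy. Purines are assembled on phosphoribosyl pyrophosphate (PRPP), pyrimidines are made as a free ring that is then joined to it, and ribonucleotide reductase turns ribonucleotides into the deoxynucleotides of DNA. Serine made from a glycolytic intermediate supplies carbon units that folate carries to purines and to thymidylate. Several of these genes are known MYC targets, and MYC with MAX binds the E-box, the hexamer CACGTG, and more weakly variants such as CACGCG. Several deoxynucleotide genes are induced by E2F factors at the start of S phase.

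RefSeq promoters of build GRCr8, each of 250 bases before to 50 after an annotated start, were found for 28 of the 32 genes and for 16 of the 20 measured. Dhodh, Mthfd1, Rrm2 and Umps had no entry. CACGTG stood in the windows of 3 of the 28 genes, Atic, Shmt1 and Adss2, and in 6.42% of all 33469 promoters. CACGCG, read on both strands, stood in 5, Adsl, Impdh1, Impdh2, Psat1 and Shmt2, against 8.5% of all promoters. Among E2F-type letters, TTTGGCGC was found in 2 windows, Shmt1 and Tyms, against 0.493% of all, and TTTCCCGC in 2, Hprt1 and Ppat, against 0.974%. No searched motif overlapped another in these windows. A match is a description of letters and not a binding site. The windows of the 5 measured genes that held an E-box, its variant or the first of the E2F-type motifs follow, from position -110 to 25 relative to the start (first transcribed base 1), 5′ to 3′ along the gene's strand, with the motif in capitals. These 5 were picked for display with their array values known. Atic and Impdh2 lay on the higher side in the arrays, Psat1 and Tyms on the lower side, and Shmt2 between them. CACGCG thus stood in genes of both sides. Measured Hprt1 held TTTCCCGC at position 41, beyond the stretch shown. A link between motif and direction was not tested.
Atic, chr9:80614201-80614335, plus strand: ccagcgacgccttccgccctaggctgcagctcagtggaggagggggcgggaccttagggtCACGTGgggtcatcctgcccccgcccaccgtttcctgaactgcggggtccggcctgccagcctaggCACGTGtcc
Impdh2, chr8:118135147-118135281, plus strand: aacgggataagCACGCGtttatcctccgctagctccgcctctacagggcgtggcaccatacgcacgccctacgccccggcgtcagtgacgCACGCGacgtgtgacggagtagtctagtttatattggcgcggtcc
Psat1, chr1:222645384-222645518, minus strand: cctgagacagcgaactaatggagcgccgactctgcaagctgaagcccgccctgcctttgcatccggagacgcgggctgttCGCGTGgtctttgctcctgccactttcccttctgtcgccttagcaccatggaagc
Shmt2, chr7:65249543-65249677, minus strand: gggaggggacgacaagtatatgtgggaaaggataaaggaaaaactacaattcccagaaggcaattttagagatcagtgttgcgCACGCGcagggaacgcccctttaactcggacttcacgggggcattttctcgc
Tyms, chr9:120776059-120776193, minus strand: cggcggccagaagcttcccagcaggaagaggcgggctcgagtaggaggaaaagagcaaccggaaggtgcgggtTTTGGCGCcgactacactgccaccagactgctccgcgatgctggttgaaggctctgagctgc

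In Atic the E-boxes began at positions -50 and 17. Impdh2 held CACGCG at positions -99 and -20, and Shmt2 held it at -27. Psat1 held the same hexamer on the opposite strand at -30, where it reads CGCGTG, and in Tyms TTTGGCGC began at -37.

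All values below are log2 signals relative to the 75th percentile of the same array, so that a negative value lies below that percentile, and a log2 fold change is the MAX vector mean minus the empty vector mean. On the arrays 64.4% to 71.51% of the 41012 probes exceeded background clearly by the scanner's own flag (called well above background here), and the Pearson correlation of log2 signal between arrays ran from 0.9839 to 0.9905. Precision is limited by the number of arrays. The Max probe passed that flag on 0 of 4 arrays, at -8.36 to -7.61. Its place relative to the plasmid insert is not known here, and so it is no check of the labels. Of 12 chromaffin markers 10 were measured, 8 of them negative (53.5% of all genes tested were), with a median log2 fold change of -0.55. At an unadjusted p under 0.05 in limma, 1 was higher (7.93% of all genes tested were) and 4 were lower (8.21% were). Th, whose enzyme sets the rate of catecholamine synthesis, rose (2.15, adjusted p = 0.0203 in limma) and Ddc, the next enzyme of that pathway, fell (-1.08, adjusted p = 0.0391), while Ret (probe well above background on neither MAX vector array), Phox2a (-0.74) and Hand2 (-0.35) were the others on the lower side of that count. The granule genes Chga and Chgb had group means between -4.13 and -3.76, and the probe of Dbh, which makes noradrenaline, passed the flag in 1 MAX vector sample of 2.

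With the MAX vector, 0 of the 20 measured synthesis genes passed limma at an adjusted p of 0.05, in a comparison in which 213 of 25356 genes (0.84%) did. That number was 0 with no filter on dim probes, with the replicate number as a block and without either empty vector array (4033, 3885, 1963 and 2456 genes at an unadjusted p under 0.05), and 8 on slide 1. The calls of single genes named here, Th, Ddc, Krt19 and Gda, are thus lost under the alternatives that gave 0. All 20 were well above background on all 4 arrays, so none had entered through 1 group alone. Their log2 fold changes ran from -0.68 (Rrm2) to 0.27 (Atic), with a median of -0.03 beside -0.02 over all genes tested. At an unadjusted p under 0.05 there were 3 lower genes, Rrm2, Rrm1 and Psph (15% of the 20, against 8.21% of all genes tested), and 0 higher (against 7.93%). Both MAX vector arrays lay below both empty vector arrays for 8 genes (40%, against 26% of all genes tested) and above them for 5 (25%, against 24.2%), and the arrays overlapped for 7. The shares over all genes include dimmer ones, since 22822 of the 25356 were well above background on all 4 arrays. The median gap between replicates was 0.06 (empty vector) and 0.12 (MAX vector) for the 20, against 0.12 and 0.15 over all genes. The 95% interval of the fold change lay within 2-fold in either direction for 19 of the 20 (95%, against 82.5% of all). The exception was Rrm2. So a change of 2-fold or more was outside the interval for every measured gene but Rrm2. The intervals of Rrm2, Rrm1 and Psph lay below 0, and those of the other 17 spanned it.

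**Figure D1:**
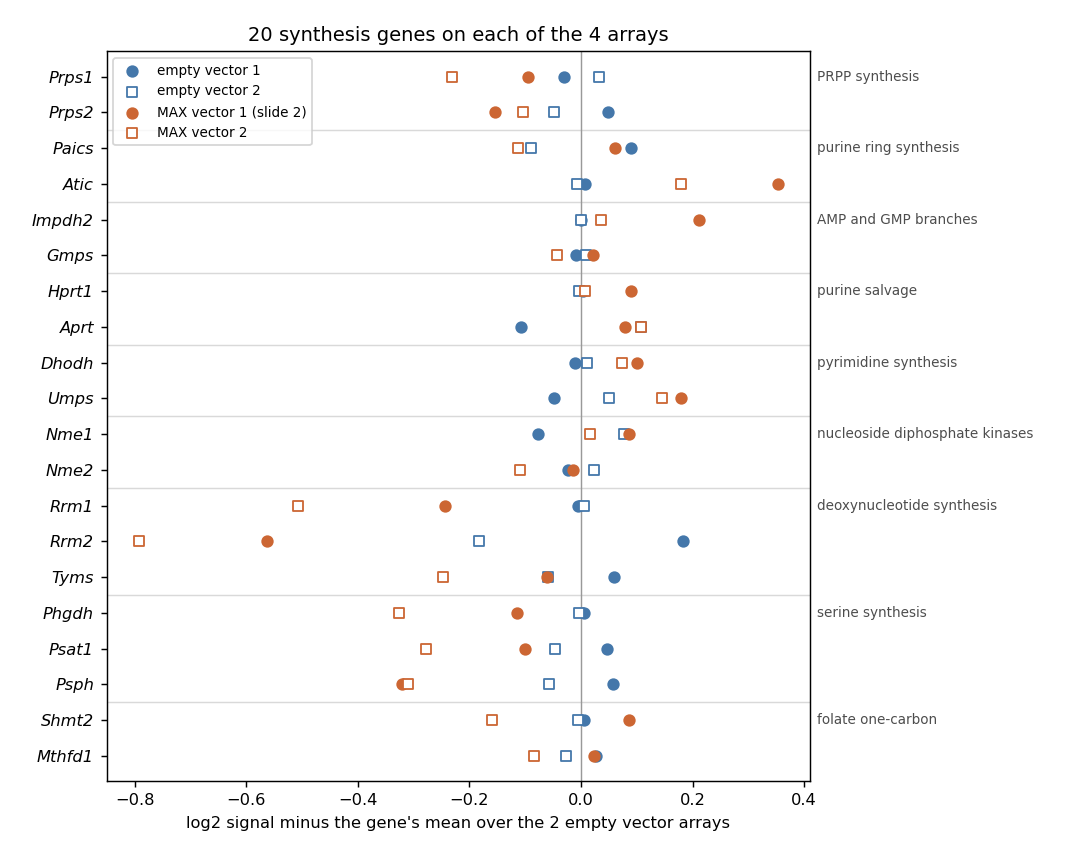
Log2 signal of 20 synthesis genes on each array, minus the gene's mean over the 2 empty vector arrays; blue is the empty vector, orange the MAX vector, and genes are ordered by role. Both orange points lie left of both blue points in 8 genes, all of deoxynucleotide, serine or PRPP synthesis, and right of both in 5 genes.

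The 8 genes with both MAX vector arrays below were all 3 measured genes of deoxynucleotide synthesis, all 3 of serine synthesis and both of PRPP synthesis. The 12 genes of the other 6 roles ran from -0.06 to 0.27 with a median of 0.05. Of these 12, 0 had both MAX vector arrays below, since the 3 roles set apart hold all 8 genes that did. This 0 was fixed by that choice and cannot be set against the 26% of all genes tested. Among the 12, 5 had both above (24.2% of all genes tested did), and 7 overlapped. The 5 were Atic, Impdh2, Hprt1, Dhodh and Umps. These 3 roles were set apart after their values were seen, and no test compares them with the others. The size of the shift differed between the MAX vector arrays: the median of the 20 genes was -0.11 on slide 1, where only MAX vector replicate 2 stood against the empty vector (0.01 over all genes), and 0.02 without that replicate (-0.03 over all genes). MAX vector replicate 1 exceeded replicate 2 in 17 of the 20 genes (85%, against 47.9% of all genes tested). Slide and replicate cannot be told apart within the MAX vector group.

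Rrm2 and Rrm1, of deoxynucleotide synthesis, had the lowest log2 fold changes of the 20. Rrm2 encodes the small subunit of ribonucleotide reductase, the S-phase subunit that carries the enzyme's radical. Its log2 signals were 2.06 and 1.69 in empty vector cells against 1.31 and 1.08 in MAX vector cells. Both MAX vector arrays were lower, and the empty vector arrays stood 0.37 apart. The log2 fold change was -0.68 ± 0.18 (SE, n = 2 arrays per group), a signal 0.625 times that of the empty vector, with a 95% interval from -1.17 to -0.19 (limma, adjusted p = 0.216). With normexp, another background correction, Rrm2 passed (-0.64 ± 0.15, adjusted p = 0.0354 in limma), and over 17 alternatives, 3 of which are one and the same fit, its adjusted p ran from 0.0354 to 0.705. That was the 1 call among 300 tests of these genes in the 15 distinct alternative fits.

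Rrm1, which encodes the large catalytic subunit of the same enzyme, had 2.27 and 2.28 in empty vector cells against 2.04 and 1.77 in MAX vector cells. The empty vector arrays differed by 0.01 and the MAX vector arrays by 0.26, without overlap. Its log2 fold change was -0.38 ± 0.13 (adjusted p = 0.287 in limma), with a 95% interval from -0.73 to -0.02. Tyms, which encodes thymidylate synthase, the folate-dependent enzyme that makes thymidylate, had 1.43 and 1.309 in empty vector cells against 1.307 and 1.12 in MAX vector cells. The groups were parted by a margin far smaller than the 0.12 and 0.19 between replicates, and the log2 fold change was -0.15 ± 0.11 (adjusted p = 0.567). On slide 1 alone Rrm2, Rrm1 and Tyms had -0.79, -0.51 and -0.25, and without MAX vector replicate 2 they had -0.56, -0.24 and -0.06. The direction was the same with either MAX vector array, and the size was larger with replicate 2 in all 3.

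Serine synthesis was measured for its whole pathway of 3 enzymes. Phgdh, the dehydrogenase that draws 3-phosphoglycerate out of glycolysis, had 7.16 and 7.15 in empty vector cells against 7.04 and 6.83 in MAX vector cells. The empty vector arrays were nearly equal, and the MAX vector arrays were 0.21 apart. Its log2 fold change was -0.22 ± 0.11 (adjusted p = 0.435 in limma). Psat1, the aminotransferase of the next step, had -2.14 and -2.23 in empty vector cells against -2.29 and -2.47 in MAX vector cells. The gap between the groups' nearest arrays was smaller than that between replicates, and the log2 fold change was -0.19 ± 0.11 (adjusted p = 0.481). With normexp Psat1 had -0.06. Psph, the phosphatase that releases serine, had 1.95 and 1.83 in empty vector cells against 1.57 and 1.58 in MAX vector cells. Here the MAX vector arrays were within 0.01 of each other, and the log2 fold change was -0.32 ± 0.09 (adjusted p = 0.248), a signal 0.803 times that of the empty vector. Psph was thus the gene of this pathway whose value barely differed by MAX vector array, at -0.31 on slide 1 and -0.32 without MAX vector replicate 2, where Phgdh had -0.33 and -0.11.

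**Figure D2:**
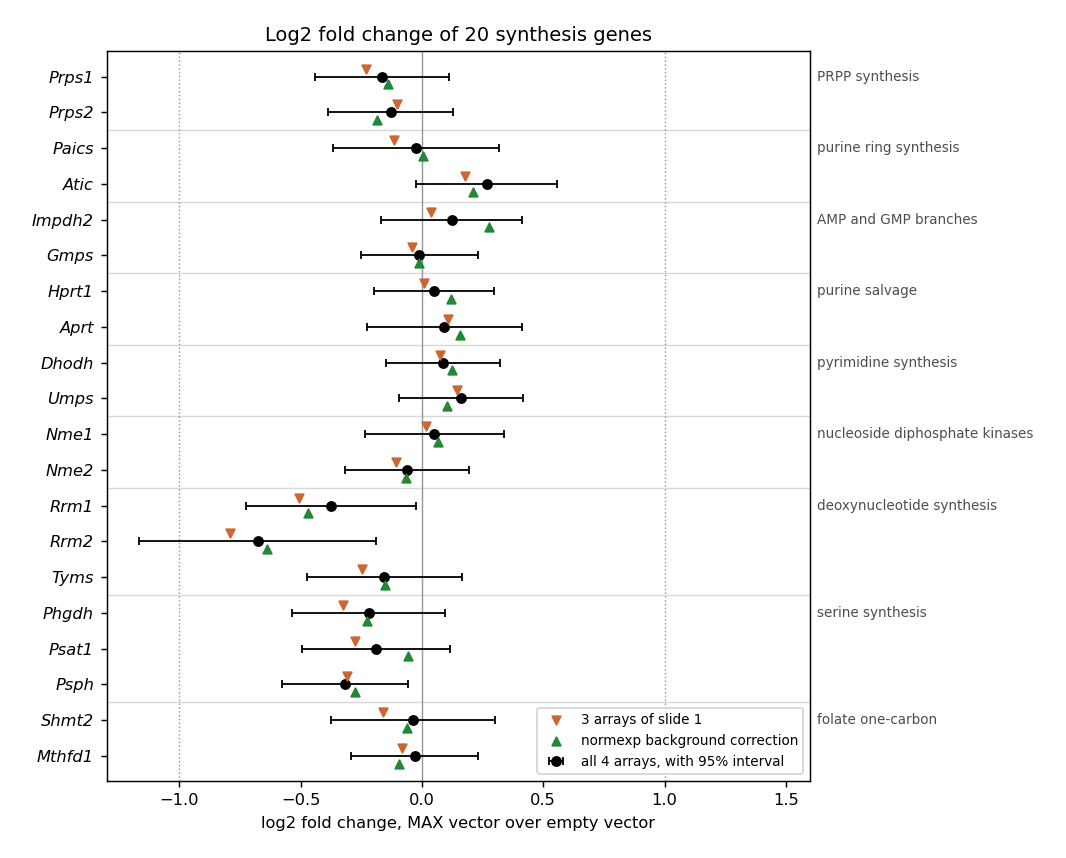
Log2 fold change, MAX vector over empty vector, of the 20 genes with the 95% interval of limma (black), on the 3 arrays of slide 1 (orange) and with normexp background correction (green); dotted lines mark 2-fold. Only the interval of Rrm2 crosses a dotted line, and those of Rrm2, Rrm1 and Psph lie below 0.

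PRPP synthesis supplies the ribose phosphate to which both kinds of ring are joined. Prps1, which encodes a PRPP synthetase, had 3.25 and 3.32 in empty vector cells against 3.19 and 3.05 in MAX vector cells. Its paralog Prps2 had 2.42 and 2.32 in empty vector cells against 2.22 and 2.27 in MAX vector cells. Neither pair of groups overlapped, but the nearest arrays of the groups differed by less than the wider of the replicate gaps (0.14 for Prps1 and 0.10 for Prps2). The log2 fold changes were -0.16 ± 0.10 and -0.13 ± 0.09 (adjusted p = 0.497 and 0.551 in limma). The paralogs are close in sequence, so which of them gave the signal of a probe is uncertain.

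Purine ring synthesis was measured in 2 of 6 genes. Atic encodes the bifunctional enzyme of the last steps, which uses a folate-borne formyl group and closes the ring to inosine monophosphate. Its signals were 3.20 and 3.18 in empty vector cells against 3.55 and 3.37 in MAX vector cells. Both MAX vector arrays were higher, and they differed by 0.17 where the empty vector arrays differed by 0.01. The log2 fold change of 0.27 ± 0.10 (adjusted p = 0.339 in limma), a signal 1.20 times that of the empty vector, was the highest among the 20. On slide 1 Atic had 0.18, and over 17 alternatives it stayed between 0.18 and 0.35. Of the 16 measured genes with a promoter entry, Atic was the 1 whose window held CACGTG, printed above. Shmt1 and Adss2, which also held it, had no named probe. Whether the motif bears on the value of Atic was not tested. Paics, whose product carries out a pair of middle steps, had 3.08 and 2.90 in empty vector cells against 3.05 and 2.87 in MAX vector cells. Those arrays interleaved, with a log2 fold change of -0.03 ± 0.12.

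From inosine monophosphate the pathway branches. Impdh2, the rate-limiting dehydrogenase on the way to guanine nucleotides, had 6.234 and 6.233 in empty vector cells against 6.44 and 6.27 in MAX vector cells. Most of its difference lay in MAX vector replicate 1: the log2 fold change was 0.12 ± 0.10 (adjusted p = 0.612 in limma) with all arrays and 0.04 on slide 1. Its paralog Impdh1 had no named probe. Gmps, the next enzyme, had 4.21 and 4.22 in empty vector cells against 4.24 and 4.17 in MAX vector cells. The arrays overlapped, and the log2 fold change was -0.01 ± 0.09, with a 95% interval from -0.25 to 0.23.

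Purine salvage recycles free bases onto PRPP. Hprt1, which salvages hypoxanthine and guanine and often serves as a reference gene, had 4.910 and 4.904 in empty vector cells against 4.996 and 4.914 in MAX vector cells. Both MAX vector arrays lay above, by a margin far smaller than the 0.08 between MAX vector replicates. On slide 1 the log2 fold change of Hprt1 was 0.007, and another of its probes had both MAX vector arrays below (-0.08). Aprt, which salvages adenine, had 4.72 and 4.93 in empty vector cells against 4.90 and 4.93 in MAX vector cells. Aprt's empty vector arrays differed more than the groups did. The log2 fold changes were 0.05 ± 0.09 for Hprt1 and 0.09 ± 0.11 for Aprt (adjusted p = 0.820 and 0.726 in limma).

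In pyrimidine synthesis, Dhodh, the mitochondrial enzyme that oxidises dihydroorotate, had 1.11 and 1.13 in empty vector cells against 1.22 and 1.20 in MAX vector cells. Umps, which turns orotate into uridine monophosphate, had 0.96 and 1.06 in empty vector cells against 1.19 and 1.15 in MAX vector cells. Both genes were higher on both MAX vector arrays, by 0.09 ± 0.08 and 0.16 ± 0.09 on the log2 scale (adjusted p = 0.655 and 0.471 in limma), and both 95% intervals spanned 0. Cad, which encodes the trifunctional first enzyme, and Ctps1, which makes cytidine triphosphate, had no named probe.

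Nucleoside diphosphate kinases make triphosphates from diphosphates. Nme1 had 5.81 and 5.96 in empty vector cells against 5.97 and 5.90 in MAX vector cells, and Nme2 had 8.28 and 8.33 in empty vector cells against 8.29 and 8.19 in MAX vector cells. In both genes the arrays overlapped, with log2 fold changes of 0.05 ± 0.10 and -0.06 ± 0.09. They too are close paralogs, so the source of each signal is uncertain.

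Of the folate one-carbon enzymes, Shmt2, the mitochondrial hydroxymethyltransferase that takes a carbon unit from serine, had 2.19 and 2.18 in empty vector cells against 2.27 and 2.02 in MAX vector cells. One MAX vector array was above the empty vector arrays and the other below. Mthfd1, the cytosolic trifunctional enzyme that interconverts folate-borne units, had 3.34 and 3.28 in empty vector cells against 3.33 and 3.22 in MAX vector cells. The log2 fold changes were -0.04 ± 0.12 and -0.03 ± 0.09 (adjusted p = 0.904 and 0.897 in limma).

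**Figure D3:**
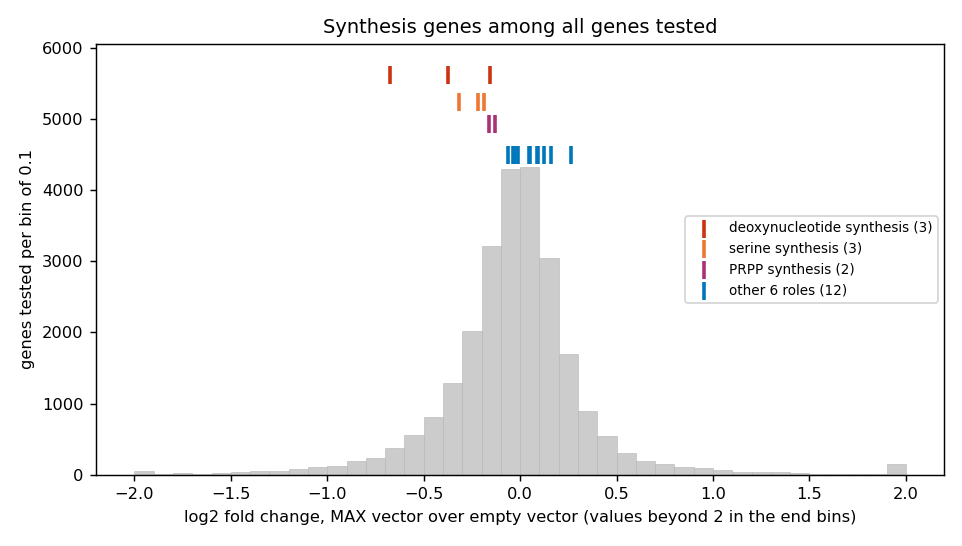
Histogram of the log2 fold changes of all 25356 genes tested (grey, bins of 0.1) with the 20 synthesis genes as coloured marks by role. The marks for deoxynucleotide, serine and PRPP synthesis lie between -0.68 and -0.13, and those for the other 6 roles between -0.06 and 0.27.

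Genes with several probes showed how far the values depend on the probe. Rrm1 had 3, and each gave lower signal in both MAX vector samples than in either control, with log2 fold changes of -0.38, -0.38 and -0.41. Rrm2 had 2, with -0.68 and -0.82. Its second probe varied more between replicates, at 1.22 and 0.46 in controls against 0.29 and -0.25 with MAX. The probes of Impdh2 gave 0.12 and 0.05, those of Gmps -0.01 and -0.08, and the 4 of Hprt1 lay between -0.08 and 0.05. None of these 13 probes passed when every probe was tested. One Hprt1 probe had 10 usable spots on each of 3 arrays and 9 on empty vector replicate 2, and its spots had an SD of 0.06 to 0.09 on the log2 scale within an array.

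**Figure D4:**
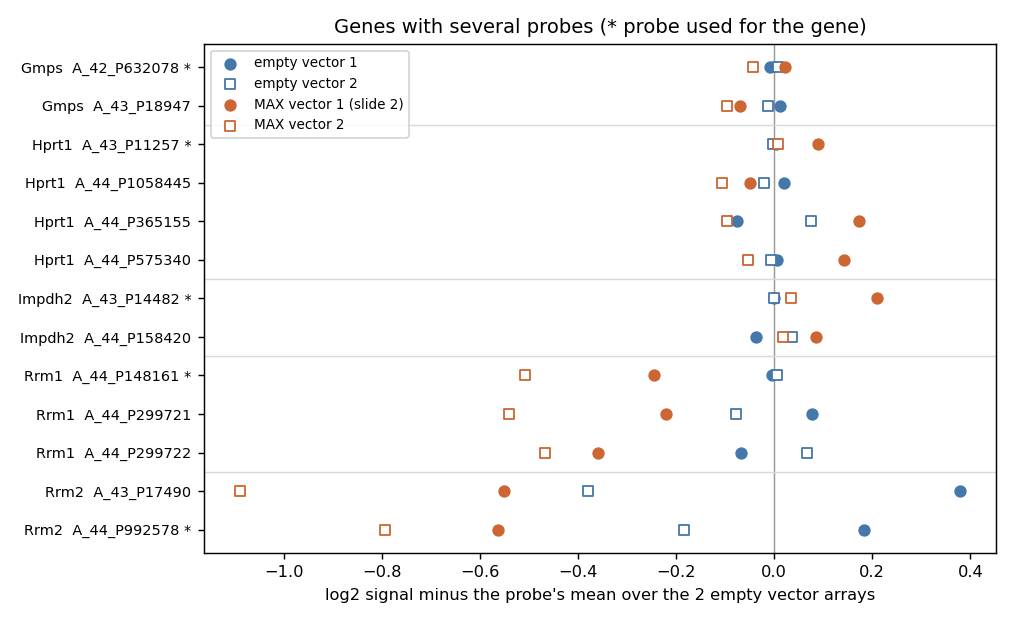
Log2 signal of each probe of the 5 genes with several probes, minus the probe's mean over the 2 empty vector arrays, on each of the 4 arrays. All 5 probes of Rrm1 and Rrm2 have both MAX vector arrays below both empty vector arrays, as do 1 of the 2 probes of Gmps (-0.08) and 1 of the 4 of Hprt1 (-0.08), whereas 1 probe of Impdh2 (0.12) and another of Hprt1 (0.05) have both above.

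Among other genes of these pathways, 15 of 23 listed for purine metabolism were measured, and 1 of them passed, lower. This was Gda, guanine deaminase, which removes guanine from the salvage pool. Its values were -5.45 and -5.54 in empty vector cells against -7.84 and -7.96 in MAX vector cells, where it was well above background on neither array. It had entered the test through the empty vector arrays alone, and its adjusted p of 0.0197 in limma rests on MAX vector values under the lowest signal well above background (-5.65 and -6.04 on those arrays). Against that lowest signal it was at least 1.27-fold lower. The median log2 fold change of the 15 was 0.08. Prpsap1 (0.30) was the 1 higher, and Gda and Ampd3 were the 2 lower, at an unadjusted p under 0.05. Over all genes tested, 7.93% were higher and 8.21% lower in this way. Ampd3, an AMP deaminase gene, had -1.99 and -2.07 in empty vector cells against -2.90 and -2.73 in MAX vector cells (log2 fold change -0.78 ± 0.11, adjusted p = 0.0888). Of 27 further genes of pyrimidine and deoxynucleotide metabolism, 7 were measured and 0 passed in limma. Among the 7, 1 was higher and 1 lower at an unadjusted p under 0.05 (7.93% and 8.21% of all genes tested). Upp1, the uridine phosphorylase, had 2.24 and 2.46 in empty vector cells against 3.16 and 3.14 in MAX vector cells (log2 fold change 0.80 ± 0.12, adjusted p = 0.0967), and Nme7 had 0.29. Dck, which phosphorylates deoxycytidine, had -0.37, and Dut, which removes dUTP, had -0.28.

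Of 29 further folate and one-carbon genes, 19 were measured and 0 passed in limma. Their median was 0.04, with 2 higher and 0 lower at an unadjusted p under 0.05 (7.93% and 8.21% of all genes tested). Cbs, which condenses serine with homocysteine, had -5.63 and -5.06 in empty vector cells against -4.07 and -3.97 in MAX vector cells (log2 fold change 1.32 ± 0.22, adjusted p = 0.120). Sardh, the sarcosine dehydrogenase, had 0.38, and Mat1a and Folr1 had -0.49 and -0.39. Of 15 genes of serine and glycine use and transport, 12 were measured, with a median of -0.07 and 0 calls in limma. Among the 12, 0 were higher and 2 lower at an unadjusted p under 0.05 (7.93% and 8.21% of all genes tested). The 2 lower were the amino acid transporter genes Slc38a1 and Slc38a2, with -0.31 ± 0.09 and -0.30 ± 0.09 (adjusted p = 0.239 and 0.252 in limma). Slc6a9, a glycine transporter gene, had 0.23 and Sfxn1, a mitochondrial serine carrier gene, 0.13.

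ATF4 is a known activator of the serine synthesis genes. Of 12 genes of its pathway 7 were measured, 6 of them negative (53.5% of all genes tested were), with a median of -0.17. There were 0 calls in limma and 1 lower at an unadjusted p under 0.05 (8.21% of all genes tested were). Atf4 itself had -0.08 ± 0.11, with overlapping arrays, Ddit3 -0.30, Eif4ebp1 -0.27 and Cebpb 0.25. The part of ATF4 in the values of Phgdh, Psat1 and Psph was not tested. Cell cycle genes stood beside the deoxynucleotide genes as follows. All 8 measured mitotic genes of 13 were negative (53.5% of all genes tested were) with a median of -0.40, 0 passed in limma and 7 were lower at an unadjusted p under 0.05 (8.21% of all genes tested were), among them Plk1 (-0.55) and Ccna2 (-0.49). The S phase and replication list had 5 of 20 genes measured with a median of -0.19 and 0 calls in limma. Rfc3 (-0.27) was the 1 lower at an unadjusted p under 0.05 (8.21% of all genes tested were). Pcna had -0.20 and Fen1 0.04. The mean log2 signal of the mitotic list was 3.61 and 3.48 in empty vector cells against 3.24 and 3.04 in MAX vector cells. Their part in the values of Rrm1, Rrm2 and Tyms was not tested. In the MAX and MYC network, 5 of 10 genes were measured and 0 passed in limma. Myc had -0.01 ± 0.15, Mycn -0.48, Mxd3 -0.35 and Mxi1 0.17. Among the 5, 0 were higher and 2 lower at an unadjusted p under 0.05 (7.93% and 8.21% of all genes tested).

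Of the markers of other cell types, 1 passed. Epithelial markers had a positive log2 fold change in 7 of 7 (53.5% of all genes tested were negative), with 1 call, Krt19 (3.19, adjusted p = 0.0263 in limma). At an unadjusted p under 0.05, 6 were higher (7.93% of all genes tested were). Both MAX vector arrays lay above for 6 (24.2% of all genes tested). Their mean log2 signal was -0.11 and 0.14 in empty vector cells against 1.08 and 1.08 in MAX vector cells. For macrophage markers 5 of 7 were measured, 4 of them positive, with 0 calls in limma. Lyz2 (1.32) and Cd14 (0.82) were the 2 higher at an unadjusted p under 0.05 (7.93% of all genes tested were). The arrays overlapped for Cd68 (0.43), Csf1r (0.06) and Adgre1 (-0.73). Lyz2 had -6.34 and -5.99 in empty vector cells, near the lowest signal well above background there (-6.53 and -6.07). The mean of the 5 macrophage markers was -2.81 and -2.71 in empty vector cells against -2.75 and -2.01 in MAX vector cells. Fibroblast markers, 5 of 7 measured, had means of 0.70 and 0.79 in empty vector cells against 0.42 and 0.62 in MAX vector cells. They had 0 calls in limma. Dcn (0.75) was the 1 higher, and Lum (-1.19) and Pdgfrb (-0.58) the 2 lower, at an unadjusted p under 0.05. Over all genes tested, 7.93% were higher and 8.21% lower in this way. Of 5 endothelial markers only Kdr was measured, with 1.98 (adjusted p = 0.0701 in limma). Their part in the values of the synthesis genes was not tested.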

How the data were processed

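The authors deposited scanner files that hold spot intensity, written by Agilent Feature Extraction 10.7.3.1 per the file headers (10.7 per the submitters' processing notes). Per the file headers, that software removed background and spatial trend from the processed intensity, array by array with no scaling across arrays, and the annotation is of build rn4. The deposited value table of log2 values matched these after scaling: differences between its columns had a median disagreement of 2.59e-07, each probe's centre stays unknown, and its column medians were -0.03315, -0.01068, -0.005359 and -0.006453. Spots with outlier flags (89 to 140 per array) and 89 probes with no spot left were left out. Spots of a probe were averaged as log2 of processed signal, and values were set relative to the 75th percentile of their array (590 to 700.5 signal units). A probe had to exceed background on 2 or more of the 4 arrays, and the 28564 that did gave 25356 genes, each by its probe with the highest mean. RefSeq accessions, without versions, named 10746 probes through the gene table of assembly GRCr8. The test was limma 3.58.1 under R 4.3.3 (lmFit, eBayes, 3.94 total degrees of freedom), Benjamini-Hochberg over all genes, threshold 0.05, and ± is an SE. The fit was tested on simulated data. Normexp (offset 50) used median spot signals, since the files hold no mean signal column. All members with a probe are named. In pathway and context lists, genes are named where they passed, and otherwise the largest positive and negative values, up to 2 each, among probes well above background on all 4 arrays. Atf4, Myc, Prpsap1, Ampd3 and the cell type markers fall outside this rule and were named after their values were seen. Members and lists were chosen with earlier results of these data known.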

Additional observations from a re-analysis of the deposited data

How the results depend on the processing

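Of 20 synthesis genes, 14 kept the sign of their log2 fold change under all 17 alternatives, 9 negative and 5 positive. Several alternatives could not turn a sign, since they left each gene's log2 fold change as it was. These were no filter on dim probes, the filter on all 4 arrays, every probe tested, the replicate block and limma's trend. The deposited value table gave almost the same fold changes as the main fit. The slide as a block, slide 1 alone and leaving out MAX vector replicate 1 are one and the same fit, so 15 of the 17 are distinct. The number called stayed at 0 except with normexp (1, Rrm2). The number called among all genes was 213 and became 799 with normexp, 541 with each array's median, 515 with probes well above background on all 4 arrays, 955 with limma's trend, 0 with no filter on dim probes (4033 at an unadjusted p under 0.05) and 8 with the slide as a block or on slide 1 alone. With the replicate block it was 0 in limma (3885 at an unadjusted p under 0.05). The replicate numbers are not tied to passages in the labels, so no pairing was assumed. Deviations of same-numbered arrays had a correlation of -0.018. The MAX vector arrays were on different slides, so this value cannot show whether the arrays were paired. With 1 array left out at a time, which assumes that the lone array varies like the other group, the count ran from 0 to 144: 0 without empty vector replicate 1 or 2 (1963 and 2456 at an unadjusted p under 0.05), 8 without MAX vector replicate 1 and 144 without MAX vector replicate 2. The median of the 20 genes was -0.107 with the slide as a block or on slide 1 alone and ran from -0.107 to 0.022 with 1 array left out. Signs turned for genes near 0: Paics had 0.0027 with normexp, and Gmps had 0.0040 with quantile normalization, 0.0130 with the array median and 0.0133 with the percentile over probes well above background on all arrays. With 1 array left out, Aprt ran from -0.015 to 0.200, Nme1 from -0.026 to 0.128, Paics from -0.117 to 0.064, Gmps from -0.043 to 0.021, Mthfd1 from -0.084 to 0.023 and Shmt2 from -0.160 to 0.086. The causes were not tested. A planned normexp on mean spot signals was run on median signals instead.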
